A study of Homo sapiens with 6 samples.

Results

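UPF1, UPF2, UPF3A, UPF3B, SMG1, SMG5, SMG6 and SMG9 encode 8 core factors of nonsense-mediated mRNA decay (NMD). They were taken as a set for this function, and every row of the study's splicing tables that named 1 of them was used. Of these rows, 58 of the 61 had the required mean of at least 10 junction reads over the 6 libraries. The tables held 66395 such rows in all. Each row is a splicing event, that is, a piece of transcript that is either kept (inclusion) or left out (skipping), counted by the reads that cross the splice junctions of each form. The percentage spliced in (PSI) is the share of inclusion after the counts are divided by the effective length of each form.

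RNA came from NCI-H1975, an established lung adenocarcinoma cell line. Control cells were transfected with empty PCDNA3.1 plasmid (3 libraries) and SAM68 cells with PCDNA3.1-SAM68 (3 libraries), in both cases at 2 ug per well for 48 h with lipofectamine 2000. SAM68, the product of KHDRBS1, is an RNA-binding splicing regulator. The plasmid was delivered transiently to a cell population that keeps its own KHDRBS1 gene, so the comparison is of raised against native SAM68, not of presence against absence. The tables do not say which of their 2 lists of libraries is which group; the first was taken as control from the heading of the study's own plots of these tables, and every direction below rests on that. The lists carry no replicate numbers either, so libraries are given in the order listed.

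NMD removes mRNAs whose stop codon lies well upstream of an exon junction. UPF1, an RNA helicase, is recruited to the terminating ribosome and is joined through UPF2 and UPF3A or UPF3B to the exon junction complex left behind by splicing; SMG1 phosphorylates UPF1, SMG9 is part of the SMG1 complex, and phosphorylated UPF1 draws in SMG5 and the endonuclease SMG6. Several of these factors are themselves encoded by transcripts that NMD can remove, and alternative exons that shift the reading frame are a common route to it.

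Counted over the exon-skipping events, the 6 libraries held between 16951876 and 19737729 junction reads each, and the 58 events of the 8 genes took between 13913 and 16614 reads per library. KHDRBS1 served as the check on the groups. Its most-read event stood at 311, 329 and 316 rpm (reads of the event per 1000000 reads summed over the genes) in the control libraries and at 1232, 1261 and 1277 rpm in the SAM68 libraries, a log2 fold change of 1.98 ± 0.05 (SE; limma, adjusted p = 1.15e-21). Of 8 epithelial markers, only KRT7, KRT8 and KRT18 had any listed event, and these were deep enough to be tested. KRT18 stood at 471 to 493 rpm in control cells, KRT8 at 237 to 520 rpm with 1 control library far above the rest, and KRT7 at 3.03 to 4.49 rpm. In SAM68 cells KRT18 stood at 521 to 531, KRT8 at 230 to 248 and KRT7 at 1.26 to 2.20 rpm, so that KRT18 and KRT7 did not overlap between the groups (limma adjusted p 0.254 to 0.383 over the 3 genes), and the part of this in the results below was not tested. None of the 6 markers of blood, endothelial or stromal cells had any listed event. A row exists only where both forms were read at least once in some library (0 of 78223 rows lacked a form), so a missing row does not show that a gene was silent.

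In these libraries no splicing event of the 8 NMD factors passed the test. A call required a change in PSI of at least 10 points together with an adjusted p under 0.05 in a quasi-binomial test of the counts. Of the 58 events 0 were called, where 62 of all 66395 events were (0.0934%). At that rate fewer than 1 call would fall among 58 events, so the 0 is not a result about these genes. At an unadjusted p under 0.05 there were 4 of 58 events, in SMG9 (an exon pair and exon 10) and UPF3A (exon 3 and an exon pair), beside 5.95% of all events. PSI did not overlap between the groups in 3 of the 58 (those of UPF3A and the SMG9 pair), all of which had reads in every library, beside 6.12% of all such events. The changes in PSI ran from -5.88 to 7.20 points, with a median size of 1.48 points against 1.24 points over all tested events, 33 higher and 25 lower in SAM68 cells. None reached 10 points, whereas 7.17% of all events did.

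**Figure D1:**
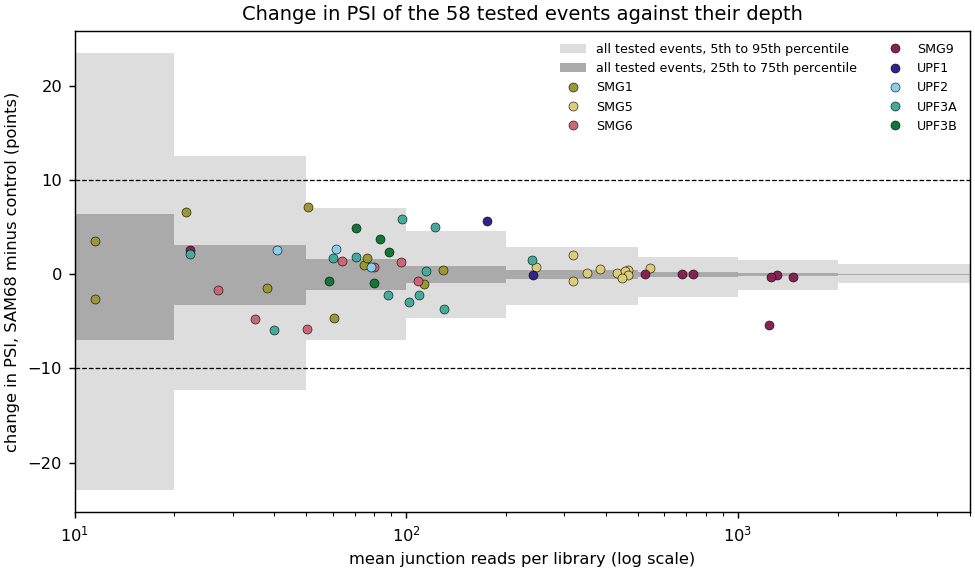
Change in PSI (SAM68 minus control, in points) of the 58 tested events of the 8 NMD factors against their mean junction reads per library on a log scale, one point per event and one color per gene, over gray bands from the 5th to the 95th and the 25th to the 75th percentile of all 66395 tested events of the same depth. All 58 points lie inside the dashed lines at 10 points, and 4 lie outside the wider band: 1 each of UPF1, UPF3A, SMG1 and SMG9.

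Alternative sequence of UPF1, UPF3A, UPF3B and SMG1 is shown first. A 172-nt version of SMG5 exon 11 and a 546-nt version of SMG9 exon 7 were also listed, the latter with 1 read of its downstream splice site in 1 control library. The 4 stretches are printed because they decide what each pair of forms encodes; all are from the hg38 build, read 5′ to 3′ along the transcript.
UPF1 exon 7, chr19:18852987-18853104, plus strand, with the 33 nt added by the downstream 5′ splice site in capitals: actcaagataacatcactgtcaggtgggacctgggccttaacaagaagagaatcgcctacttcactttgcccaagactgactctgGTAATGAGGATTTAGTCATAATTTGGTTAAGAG
UPF3A exon 4, chr13:114286259-114286400, plus strand, with the 99-nt canonical exon in capitals: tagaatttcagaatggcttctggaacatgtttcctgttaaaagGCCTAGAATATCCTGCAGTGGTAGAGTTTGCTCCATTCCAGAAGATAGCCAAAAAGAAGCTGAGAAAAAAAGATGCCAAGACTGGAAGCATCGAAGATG
UPF3B exon 8, chrX:119840594-119840684, minus strand, with the 39-nt canonical exon in capitals: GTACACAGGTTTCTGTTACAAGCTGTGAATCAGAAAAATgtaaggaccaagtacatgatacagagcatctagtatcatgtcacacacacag
SMG1 exon in intron 1, chr16:18899987-18900044, minus strand, with the first in-frame stop codon in capitals: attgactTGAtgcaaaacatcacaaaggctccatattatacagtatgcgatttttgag

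UPF1, the helicase at the center of the pathway, was read in 2 alternative forms of exon 7 of its 24 exons. The longer form uses a 5′ splice site (GAGgtgatt) 33 nt downstream of the canonical site (CTGgtaatg), and it is known to lengthen a regulatory loop of the helicase. Both forms keep the frame: the coding sequence is 3390 nt with the extension and 3357 nt without it. The extended form was crossed by 25, 39 and 42 reads in control and by 30, 59 and 52 in SAM68 libraries, against 132, 157 and 131 and then 115, 148 and 120 reads of the shorter form. PSI of the extension was thus 13.2%, 16.6% and 20.5% in control cells and 17.3%, 24.2% and 25.8% in SAM68 cells. The SAM68 mean was higher, but the lowest SAM68 library lay among the controls. The difference was 5.69 ± 3.35 points (SE), the odds ratio 1.46 with a 95% interval of 0.925 to 2.30, and the adjusted p = 0.822 in the quasi-binomial test; the exact permutation test gave p = 0.2. The most-read UPF1 event, retention of an intron, was close to silent: 1 retained read in a control library and 0 in the other 5, against 213 to 285 spliced reads per library.

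UPF2, the adaptor that links UPF1 to UPF3 proteins, had 3 events, each the skipping of a canonical coding exon, and all 3 exons were almost always kept. Exon 3 (780 nt) was skipped in 1 read of 278 in control and 0 of 191 in SAM68 libraries, the latter allowing a share of up to 1.57%. Exon 9, with the smallest p of the gene, was skipped in 2 of 136 control reads and in 0 of 109 SAM68 reads (limit 2.75%; adjusted p = 0.699). No difference was detectable at this depth.

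UPF3A, the weaker of the paired UPF3 proteins, had the most tested events of the 8, at 12. By these counts its exon 4 was more often left out than kept, though intronless copies of the gene, described below, bear on the reads without it. The 99-nt exon had a PSI of 23.2%, 37.8% and 33.99% in control and 23.2%, 30.8% and 34.4% in SAM68 libraries, from 34, 50 and 56 and then 45, 50 and 47 inclusion reads. The groups overlapped almost fully (difference -2.18 ± 5.47 points, odds ratio 0.877, 95% interval 0.549 to 1.40, adjusted p = 0.768). Inclusion and skipping both keep the frame, with 1431 and 1332 nt of coding sequence.

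A 142-nt version of UPF3A exon 4, named here after its values were seen, starts at an acceptor 43 nt upstream. It shifts the frame and gives a coding sequence of 564 nt that ends 781 nt before the last exon junction. Its listed PSI of 18.8% ± 2.7 (SD, n = 3) in control and 16.6% ± 8.0 in SAM68 cells counts the junction from exon 4 to exon 5, which both versions share. Junction by junction, the upstream acceptor was crossed by only 0, 0 and 1 reads in control and 0, 0 and 2 in SAM68 libraries, while the canonical acceptor was crossed by 9, 24 and 29 and then 28, 26 and 15. The frame-shifting version was therefore rarely read directly in either group.

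Exon 3 of UPF3A (107 nt, chr13:114282837-114282943) had the smallest p of the gene. A junction from exon 2 to exon 5, which drops exons 3 and 4, was crossed by 3, 4 and 3 reads in control and by 0, 0 and 0 in SAM68 libraries. Every control library showed it and no SAM68 library did. PSI of exon 3 was 96.0%, 93.2% and 95.7% in control and 100% in each SAM68 library, a difference of 5.03 ± 0.87 points, or 2.84 points without length normalization. The unadjusted p was 0.0126 and the adjusted p = 0.699; the exact permutation test gave p = 0.1, the smallest that 3 against 3 libraries allow. With 0 of 372 reads in SAM68 cells a share of up to 0.806% remains possible, against 2.77% of reads in control cells (95% Wilson interval 1.51 to 5.02%). Losing exons 3 and 4 together cuts the coding sequence to 327 nt, with the stop codon 769 nt before the last junction. A listed pair of UPF3A exons 5 and 6 also begins its first form with the junction from exon 2 to exon 5, so it is not independent. That form had 3, 5 and 2 reads in control and 0, 0 and 0 in SAM68 libraries (adjusted p = 0.496). The most-read event, exon 8, was kept at 95.6% ± 1.4 and 97.1% ± 2.6 (SD, n = 3).

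UPF3A also has intronless copies, which bears on these counts. Exons 3 and 5 occur letter for letter in the processed pseudogene UPF3AP1 on chromosome 17, and exon 6 in UPF3AP1 and UPF3AP2 on the same chromosome. The joined ends of exons 2 and 3, part of the inclusion count of exon 3, occur in both, and those on either side of exon 8 occur in 1 or both. The joined ends of exons 3 and 5, searched as 30 bases on either side, occur once without an intron (chr17:16746517-16746576, UPF3AP1), so a read of the form without exon 4 cannot be told from a read of that copy by these letters. The junctions into and out of exon 4 and the junction from exon 2 to exon 5 occur nowhere unspliced in the genome. The share of exon 4 in UPF3A mRNA may therefore differ from its listed PSI, and the part of the copies in it was not tested.

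UPF3B, the stronger X-linked paralog, had 5 events. Its 39-nt exon 8 was mostly left out: PSI was 5.45%, 0.902% and 3.25% in control and 8.20%, 2.00% and 10.5% in SAM68 libraries, from 7, 1 and 4 and then 9, 2 and 7 inclusion reads. The libraries of the groups interleaved (difference 3.71 ± 2.87 points, odds ratio 2.03, 95% interval 0.649 to 6.36, adjusted p = 0.699). Without the third SAM68 library the difference was 1.89 points and without the second 6.16. With exon 8 the coding sequence is 1452 nt and without it 1413 nt, both in frame. A longer, 91-nt version, chosen after its values were seen, ends at a donor 52 nt downstream and puts the stop 475 nt before the last junction. It had 5, 0 and 1 inclusion reads in control and 0, 1 and 0 in SAM68 libraries, a count that includes the junction at their 5′ end, which both versions share. Exon 5, the most-read event, was kept at 96.2% ± 6.6 and 98.5% ± 2.6 (SD, n = 3).

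SMG1, the kinase of UPF1, held a 58-nt exon within intron 1 that 3 of its 16 GENCODE transcripts include. All 3 are annotated as protein-coding. Base 8 of the exon opens a TGA in frame with the start codon of the canonical transcript. Placed in that transcript, the exon ends the coding sequence after 102 nt instead of 10986 nt, 10864 nt before the last junction. The frame from other start codons was not worked out. PSI was 39.1%, 25.4% and 32.3% in control and 37.8%, 24.5% and 20.6% in SAM68 libraries. It came from 36, 22 and 24 and then 28, 14 and 16 inclusion reads. Reads that skip the exon were 39, 45 and 35 and then 32, 30 and 43. The groups overlapped, and the odds ratio was 0.802 with a 95% interval of 0.420 to 1.53 (difference -4.62 ± 6.56 points, adjusted p = 0.707). The difference was -9.72 points without the first and -1.09 without the third SAM68 library. The inclusion reads also count the junction from this exon to exon 2, which a pair of further events with other first exons share. Setting aside as many reads as those events allow, at least 20, 16 and 12 reads in control and 18, 2 and 11 in SAM68 libraries joined exon 1 to the 58-nt exon. The share of the 58-nt exon after exon 1 may therefore differ from the listed PSI. Of the further events, at a mean of 11.5 reads each both lay just above the minimum of 10, and PSI was 96.4% and 95.2% in control and 100% and 92.6% in SAM68 cells.

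The other tested SMG1 exons were kept at over 90% on average in both groups. The most-read, exon 60, was skipped in 1 of 441 control reads and 0 of 331 SAM68 reads. Exon 6, with the largest change among the 58 events, was skipped by 2, 0 and 2 reads in control and by 0, 0 and 0 in SAM68 libraries, a change in PSI of 7.20 ± 4.28 points that 1 control library without skipping reads kept within overlapping ranges (adjusted p = 0.699). The change was 10.8 points without the second control library, past the 10-point limit but not the test, 3.39 points without the third, and 3.84 points without length normalization. SMG1 lies on chromosome 16 with partial gene copies: exon 6 occurs at 2 places in the genome, exon 3 at 3 and exon 12 at 7, in SMG1P pseudogenes. Just below the minimum of reads (7.33 on average) was the event of exon 12, with 20, 21 and 0 inclusion reads in control and 1, 0 and 0 in SAM68 libraries, skipping reads of 2 in the first SAM68 library alone, and 3 libraries without any read of it. Next to it, at 7.17 reads, a UPF3A exon of 137 nt had a PSI of 94.4% in control and 53.0% in SAM68 cells from 21 and 22 reads in all. Neither was tested.

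SMG9, a subunit of the SMG1 complex, gave the smallest p of the 58 events (0.00433, adjusted p = 0.205). The event is listed as a choice between exons 9 and 10, which the canonical transcript carries one after the other. PSI of the exon 9 form was 51.4%, 46.0% and 48.7% in control and 43.9%, 44.7% and 41.3% in SAM68 libraries. All SAM68 libraries lay below all controls, with a mean difference of -5.40 ± 1.87 points (odds ratio 0.809, 95% interval 0.699 to 0.936; exact permutation p = 0.1, the smallest possible).

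Few reads behind this SMG9 event left out either exon. Junctions that leave out exon 9 had 1, 0 and 1 reads in control and 0, 3 and 0 in SAM68 libraries, and those that leave out exon 10 had 0, 0 and 0 and then 0, 0 and 7. Nearly all reads of the exon 9 form (590, 577 and 578 reads in control, 570, 501 and 443 in SAM68 libraries) thus crossed the junction of exons 8 and 9, and nearly all reads of the exon 10 form (612, 744 and 667, then 801, 679 and 690) that of exons 10 and 11. As rpm, the exon 9 form averaged 96.8 in control and 87.8 in SAM68 cells, and the exon 10 form 112 and 126. What differed was the relative coverage of junctions that the canonical SMG9 transcript contains side by side. The most-read event, exon 10, was kept at 100% in 5 libraries and 99.1% in the third SAM68 library.

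SMG5 and SMG6, the effectors that phosphorylated UPF1 recruits, kept nearly all of their exons. SMG5 exon 16, its most-read event, was kept at 98.7% ± 0.5 in control and 99.4% ± 0.6 in SAM68 cells (SD, n = 3). Its exon 20 was skipped by 4 reads of 1 SAM68 library and by 0 in the other 5 (adjusted p = 0.699). SMG6 exon 17 was skipped in 2 of 343 control and 2 of 306 SAM68 reads, and exon 13 was skipped by 2 reads of 1 control library alone. The remaining events with a PSI between 10 and 90% were listed exon pairs of SMG5 (exons 11 and 12, 4 and 5), SMG6 (exons 2 and 4), UPF3A (exons 3 and 5, 5 and 6) and UPF3B (exons 5 and 6). Each member of these pairs is an exon of the canonical transcript, as in SMG9; their changes ran from -5.80 to 5.87 points, and their adjusted p from 0.887 to 0.994. Single libraries set several of them: the SMG6 pair lay at -12.6 points without the first and at -0.433 without the second SAM68 library, the UPF3B pair at 1.01 without the first and 12.5 without the second control library, and the UPF3A pair of exons 5 and 6 at 0.812 without the second and 8.90 without the third control library.

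**Figure D2:**
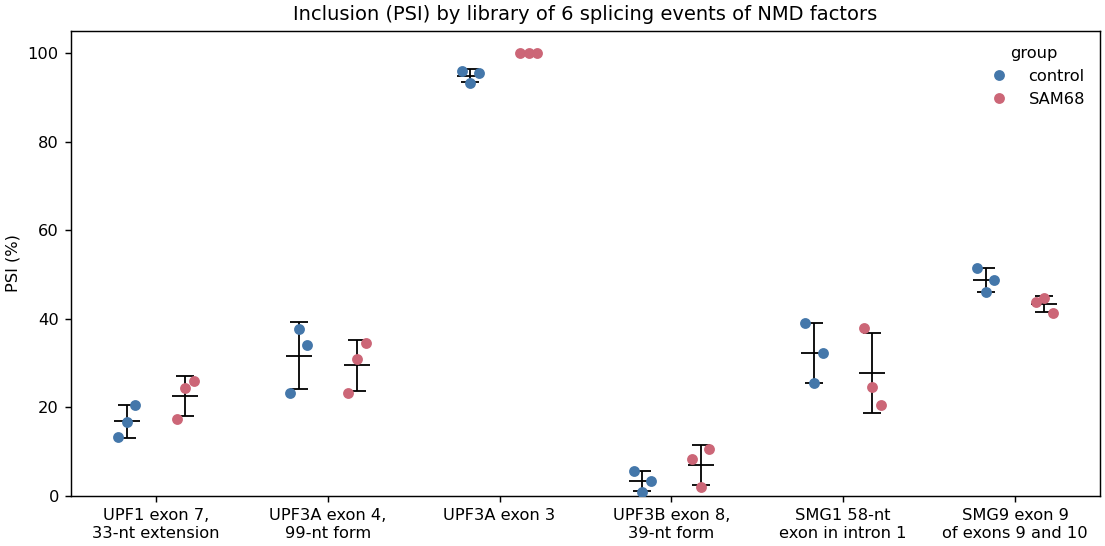
PSI in percent of 6 events of the NMD factors, one point per library, with the group mean and SD as bars. UPF3A exon 3 and the SMG9 exon pair separate the 3 control from the 3 SAM68 libraries; the other 4 events overlap.

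The skipping of otherwise kept exons was split by whether it would give an early stop. The canonical transcripts of the 8 genes have 169 internal exons, of which 37 had a tested event. UPF3A exon 4 and UPF3B exon 8, mostly left out, are set apart here, and the 36 events with a mean PSI above 90% were summed, a limit that itself fixes a low share of skipping. For 21 of them skipping puts a stop codon over 50 nt before the last junction; summed over these, the share of the skipping form (its reads against inclusion reads counted per junction) was 1.73%, 1.46% and 1.23% in control and 1.42%, 1.34% and 1.33% in SAM68 libraries. SMG9 exon 6 alone gave 70 of the 140 skipping reads in control and 75 of the 129 in SAM68 cells. For the other 15, whose skipping gives no early stop, the values were 1.26%, 0.644% and 0.976% and then 0.619%, 1.04% and 0.649%. The split looks at the skipping form alone. Among the 21, the form that keeps the exon also gave an early stop for UPF3A exon 5 and SMG1 exon 54. Among the 15, it did so for SMG1 exon 5, SMG6 exon 5 and SMG9 exon 7. The groups overlapped in both sets. Letters that SAM68 is known to bind (TAAA or TTTA, which overlap in longer A/U runs, sought on the transcribed strand) stood within 100 bases before or after 31 of the 42 distinct exons of the exon-skipping events (73.8%), beside 77.1% of all 38685 tested exons. These 4-letter words are frequent, and a match is no binding site.

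Junction reads per gene were compared next, as the nearest measure of mRNA level these tables hold. For each gene the event with the most reads was scaled to rpm. Levels of different genes are not compared, since these counts are not per length. Of the 8 factors 0 were called at an adjusted p under 0.05 with at least a doubling or halving (limma on log2 of rpm plus 0.5), where 5 of 10147 genes were (0.0493%), and 0 passed on the adjusted p alone, where 42 genes did (0.414%). At an unadjusted p under 0.05, SMG9 was higher and UPF2 lower, beside 12.1% of all genes. The median log2 fold change of the 8 was -0.03, as was that of all genes (-0.03).

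SMG9 was the only one of the 8 whose groups did not overlap, a pattern shown by 16.8% of all genes. Its most-read event stood at 222, 249 and 236 rpm in control and at 272, 262 and 260 rpm in SAM68 libraries, a log2 fold change of 0.17 ± 0.06 (SE; limma adjusted p = 0.248). With reads summed over all SMG9 events the change was 0.0235 (adjusted p = 0.862), and the median over its exon-skipping events was 0.0303. UPF2 stood at 15.2, 18.2 and 12.7 rpm in control and at 14.1, 4.78 and 13.96 rpm in SAM68 libraries. Its log2 fold change of -0.60 ± 0.28 (adjusted p = 0.389) rested on the second SAM68 library, without which it was -0.11. SMG1 was lower on average, at 25.9, 26.4 and 20.9 against 19.9, 23.3 and 14.3 rpm (-0.36 ± 0.18, adjusted p = 0.424), and the groups overlapped. Without the second SAM68 library this was -0.51 and without the third -0.17.

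The other 5 lay closer to no change or varied more between libraries. UPF1 had 39.2, 41.6 and 39.9 rpm in control and 45.0, 39.1 and 40.0 in SAM68 libraries (0.04 ± 0.12). SMG5 had 90.9, 83.5 and 98.0 and then 92.1, 93.5 and 98.97 rpm (0.07 ± 0.09). UPF3A, by exon 8 and so possibly with reads of its copies, went from a mean of 43.1 to 38.4 rpm (-0.16 ± 0.12), SMG6 from 18.9 to 17.7 rpm (-0.10 ± 0.18) and UPF3B from 13.7 to 16.6 rpm (0.28 ± 0.21). Adjusted p ran from 0.631 to 0.925 over these 5 in limma. The directions of UPF3A, SMG6 and UPF3B turned when reads were summed over all events of the gene, as given below. In bulk RNA, fewer cells with a transcript and less transcript per cell cannot be told apart.

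**Figure D3:**
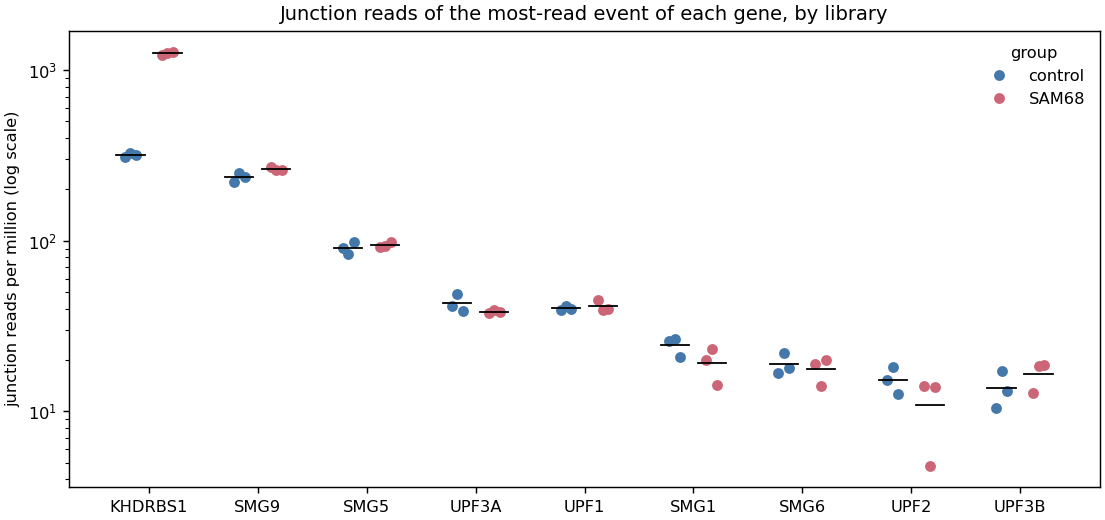
Junction reads in rpm on a log scale for the most-read event of KHDRBS1 and of each NMD factor, one point per library and a bar at each group mean. KHDRBS1 rises from a mean of 319 to 1257 rpm, while the groups overlap for every NMD factor but SMG9; heights of different genes are not comparable.

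Within a gene the value depended on which exon was read. All 9 exon-skipping events of SMG5 had more reads in SAM68 cells (median log2 change 0.17), and 9 of 10 events of SMG1 had fewer (median -0.26), with exons 3 and 5 lowest at -0.63 and -0.62. All 3 events of UPF2 were lower, but exon 6 by only -0.004 where exon 3 changed by -0.60. In SMG9, exon 7 was lower (-0.17) and exon 10 higher (0.17), and exons 6 and 9 lay at 0.03. SMG6 went from 0.49 at exon 3 to -0.10 at exon 17. Events of a gene share reads and libraries, so these are descriptions and were not tested.

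**Figure D4:**
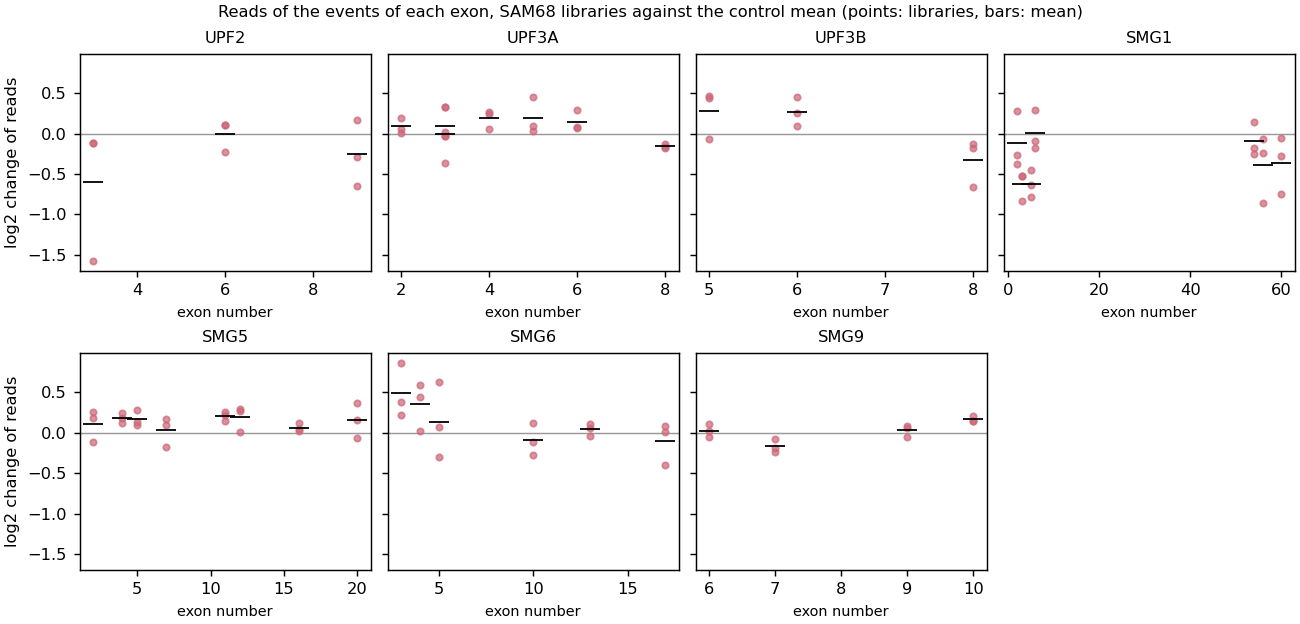
Log2 change of the reads of exon-skipping events, each SAM68 library (point) against the control mean and their mean (bar), by exon number along 7 NMD factors; UPF1 had no such event. Bars of SMG5 all lie above 0 and those of SMG1 mostly below, while those of SMG9 and SMG6 change side along the gene.

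The wider pathway was read the same way. Of 34 other NMD and exon junction complex genes, 32 could be tested and 0 passed the adjusted test; 16 were higher and 16 lower, with a median log2 fold change of -0.01. At an unadjusted p under 0.05 there were 4, named after their values were seen and all lower (12.5% of 32, beside 12.1% of all genes, of which 846 were lower and 378 higher): MAGOHB, a core subunit of the junction complex (-0.34 ± 0.11, adjusted p = 0.206), EIF4A3, its RNA-clamping helicase (-0.17 ± 0.08), TNRC6B, a scaffold of miRNA silencing (-0.64 ± 0.28), and CNOT8, a deadenylase subunit (-0.25 ± 0.12). TNRC6B and DHX34, a helicase tied to UPF1 phosphorylation (-0.38 ± 0.20, adjusted p = 0.442), had the largest changes of the list by size. Among the 238 splicing events of these genes 0 were called. An exon pair of RUVBL1, an ATPase that assists the assembly of SMG1-type kinases, was named after its values were seen as the 1 event of the 238 that passed on the adjusted p alone (0.0109), where 172 of all events did (0.259%). It had a PSI of 62.0% in control and 70.2% in SAM68 cells, 8.21 ± 3.20 points apart.

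Genes whose transcripts NMD is known to remove, often used to read out its activity, were 22, all testable, and 0 passed. Of them 13 were higher and 9 lower in SAM68 cells, with a median of 0.05, beside 4364 higher and 5783 lower of all genes. Those at an unadjusted p under 0.05 were 4, named after their values were seen and all higher (18.2% of 22, beside the 12.1% of all genes, most of them lower). GADD45A, a stress-response gene and known NMD target, stood at 80.7 rpm in control and 104 rpm in SAM68 cells (0.36 ± 0.09, adjusted p = 0.0644), and its groups did not overlap. ATF3, a stress transcription factor, stood at 2.50 and 5.37 rpm (0.99 ± 0.36, adjusted p = 0.234), also without overlap. SNHG15, a host of small nucleolar RNA, stood at 76.8 and 92.9 rpm (0.27 ± 0.10) and DDIT3, an effector of the unfolded protein response, at 60.5 and 72.2 rpm (0.25 ± 0.10). GAS5 and ZFAS1, which are NMD targets chosen here after their values were seen for their depth, had log2 fold changes of -0.03 ± 0.05 and 0.08 ± 0.05. Among the 272 splicing events of these genes 0 were called.

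**Figure D5:**
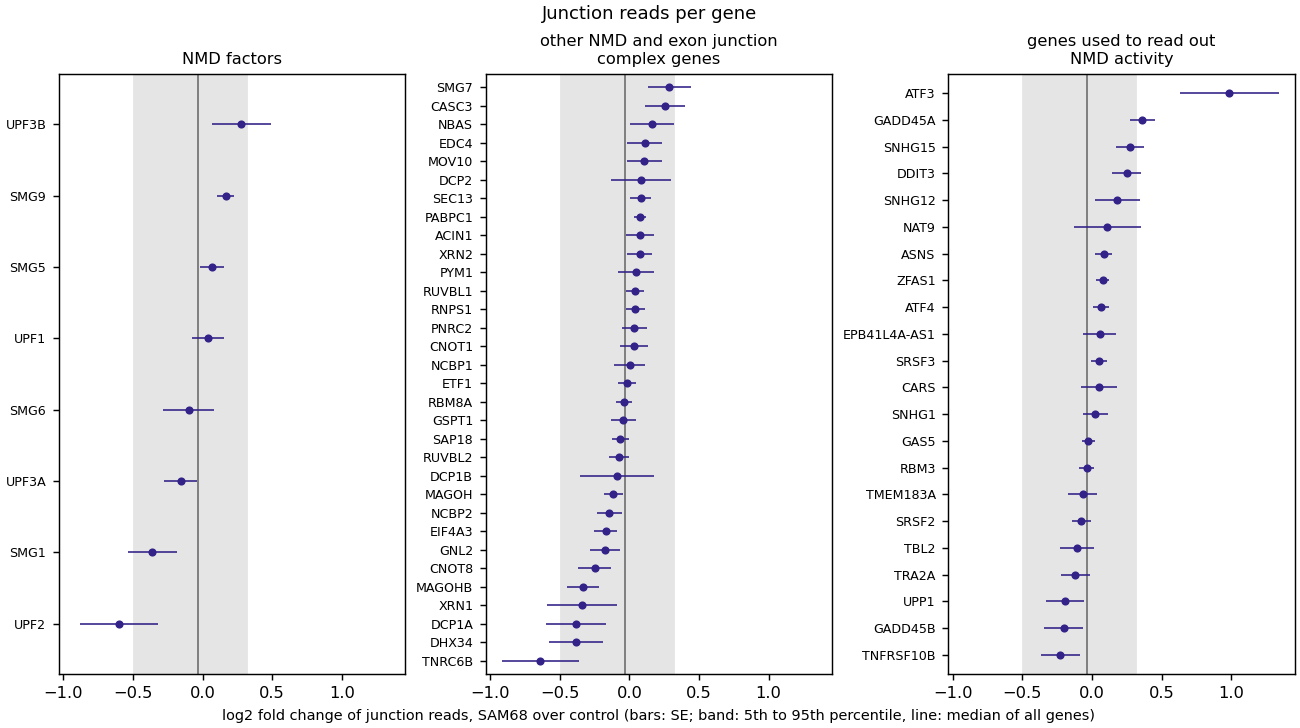
Log2 fold change of junction reads (SAM68 over control, bars are SE) for the 8 NMD factors, 32 other NMD and exon junction complex genes and 22 genes used to read out NMD activity, over the 5th to 95th percentile (band, -0.49 to 0.32) and median (line) of all 10147 genes. UPF2 and TNRC6B lie below the band and ATF3 and GADD45A above it; no gene shown passed the adjusted test.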

How the data were processed

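Total RNA of 3 control and 3 SAM68 libraries was sequenced, and the submitters' processing notes name CASAVA 1.4, fastp 0.20.0, HISAT2 2.1.0 and GRCh38. The authors deposited 5 rMATS tables (skipped exons, alternative 5′ and 3′ splice sites, mutually exclusive exons, retained introns) whose cells list junction read counts of 3 libraries; annotation release and rMATS settings are not given in the sources used here. The deposited p-values, FDR and inclusion differences of the authors' own comparison were not used. In the 3′ splice site table a spreadsheet had merged count lists in 275 rows. Of these, 162 rows were recovered from the deposited inclusion levels and 113 left out, with no row of the 8 genes among them. The 5 tables held 78336 rows besides 19 blank ones.

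PSI was averaged over libraries with reads, and SE and SD are over libraries; the form with the exon nearer the 5′ end was the inclusion form of an exon pair. Counts of all 66395 events were fitted with a quasi-binomial model with group as the term; the dispersion was moderated within each event type with limma 3.58.1 (R 4.3.3), never below 1, and p-values were adjusted by Benjamini-Hochberg within each type. The moderation gave each type 1 shared dispersion, between 2.01 and 2.53. Junction reads per gene were fitted with limma (trend) on log2(rpm + 0.5) for genes averaging 10 or more reads, so fold changes of low genes are understated. Exact permutation tests were two-sided. Exon numbers follow the canonical transcripts of GENCODE 44; 11618 of 11653 gene identifiers were found in it, and 99.9% of tested exons were preceded by AG in hg38. Wilson intervals and limits for 0 reads (3 reads) cover counting error only. Intervals of odds ratios also carry the shared dispersion. The labels do not say whether replicates were separate cultures, though the study calls them biological replicates. The p-values rest on the spread between these libraries. In the quasi-binomial test that spread was the 1 shared by all events of a type, not the event's own. Pairs of replicates differed by more than sampling noise (chi-square per degree of freedom 3.14 to 4.54).

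The 8 genes and all gene lists were chosen with earlier results of these data known. Events named with values were those called, the most read and the smallest p of each gene, those with a PSI of 10 to 90% and at least 50 reads, and the 2 just above and the 2 just below the read minimum. Of other pathway genes, those called and the 2 with the largest change of each list were named. Alternatives covered the spread, test, adjustment, read minimum, length scaling, thresholds, pseudocount and each library left out.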

Additional observations from a re-analysis of the deposited data

How the results depend on the processing

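No paired analysis was possible because the lists in the tables carry no replicate numbers. The count of 0 called events among the NMD factors and of 0 called genes held under every alternative that was run. The counts over the whole tables did not: 62 called events became 2 with each event's own spread, 3 when limma was run on logit PSI, 1357 with a likelihood ratio test that ignores the spread between libraries, 172 with no limit on the change in PSI and 106 with a limit of 5 points; leaving out 1 library gave 53 to 73. The 5 called genes became 3 with reads summed over all events of a gene, 3 with median ratio scaling, and 1 to 14 without 1 library; the 42 genes with an adjusted p under 0.05 became 18, 25, and 4 to 101 (101 without the second and 92 without the third SAM68 library). The likelihood ratio test gave adjusted p = 0.00027 for the SMG9 exon pair, 0.00722 for the UPF3A pair of exons 5 and 6, 0.00874 for UPF3A exon 3 and 0.0469 for SMG9 exon 10, none with a change of 10 points. Without 1 library the SMG9 pair ranged from -6.77 to -4.05 points (adjusted p 0.0982 to 0.694) and UPF3A exon 3 from 4.17 to 5.56 points, which became 2.84 without length normalization and 3.94 with events of the same exon summed.

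None of the directions that turned belonged to a called result. Summing events that share the 58-nt SMG1 exon turned the change of one from 3.57 to -3.47 points, which is that of all 3 together. Summing reads over all events turned UPF3A to 0.0665, UPF3B to -0.0257 and SMG6 to 0.12 (log2), and the median over exon-skipping events turned them to 0.12, -0.0249 and 0.0875. Without 1 library the ranges crossed 0 for UPF3A exon 4 (-6.39 to 0.966 points), UPF3B exon 5 (-1.49 to 4.25), the SMG5 pairs (-1.79 to 2.36 and -1.07 to 7.10), SMG6 exon 17 (-1.69 to 0.952), 1 low SMG1 event (-7.45 to 4.82), and for reads of SMG6 (-0.19 to 0.0488) and UPF1 (-0.0219 to 0.0781). UPF2, UPF3B and SMG6 events averaged under 110 reads per library, and the 58 events had a median of 99.5 against 111 for all events.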
